A study of Homo sapiens with 4 samples.

Results

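Cyclins and the cyclin-dependent kinases (CDKs) they switch on were followed at the RNA level in leukaemia cells after knockdown of PRMT9, a protein arginine methyltransferase, against a control hairpin. The set holds 10 genes chosen by symbol, namely the D-type cyclin genes CCND2 and CCND3 with their kinases CDK4 and CDK6, the E-type cyclin genes CCNE1 and CCNE2 with CDK2, and CCNA2, CCNB1 and CDK1. All 10 are among the 57992 genes of the count table and among the 15193 genes with enough reads to test. Levels are given as CPM (read counts relative to a library total scaled by TMM) for a gene between libraries and as the deposited RPKM, which divides by exon length, between genes. After PRMT9 knockdown 9 of the 10 transcripts fell and none rose, where 34.5% of all tested genes fell and 33.4% rose. CCNE2, CCNE1 and CCNA2 fell to between 35.4% and 43.9% of the control level. The kinases CDK2 and CDK1 and the mitotic cyclin gene CCNB1 fell less. CCND3, CDK4 and CDK6 fell least, CCND2 was not called, and CCND1, a D-type cyclin gene outside the set, rose.

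Poly(A) RNA was sequenced from MOLM13, a human cell line from an acute myeloid leukaemia, in a derivative labelled VEN-R, for resistance to venetoclax. A short hairpin RNA (shRNA) against PRMT9 was induced with doxycycline in 2 libraries, and a control shRNA, whose genotype is labelled WT, was induced the same way in 2 libraries. Doxycycline and the resistant background are therefore common to both groups, and the labels do not give the hairpin sequences, the time after induction, or whether libraries 1 and 2 of a group came from separate cultures. P-values and SDs measure only the spread between these libraries, which may be technical. Total counts were 30764403 and 33845172 in the PRMT9 shRNA libraries, against 30329901 and 28592902 in the control shRNA libraries. PRMT9 itself had 81 and 78 counts in the PRMT9 shRNA libraries, against 398 and 406 in the control shRNA libraries (log2 fold change -2.48, SE 0.12, edgeR adjusted p = 5.24e-13). Of 12 markers of the labelled myeloid cells, 10 were at 1 RPKM or more in every library, the exceptions being ANPEP and CD14. Of 8 lymphocyte markers only CD4 and NCAM1 reached 1 RPKM in every library, and of 8 epithelial and stromal markers only KRT18 did. Of 8 erythroid and megakaryocyte markers none did, and 5 had no count in any library. The summed RPKM of the myeloid list was 436.5 and 434.6 in the PRMT9 shRNA libraries, against 342.5 and 349.8 in the control shRNA libraries. Within that list MPO was lower in the PRMT9 shRNA libraries, at 11.44 and 11.75 RPKM against 16.11 and 15.99 RPKM, and the other markers were higher. The summed RPKM of the lymphocyte list was 64.7 and 65.3 in the PRMT9 shRNA libraries, against 39.1 and 40.1 in the control shRNA libraries, most of it CD4. The part of these marker differences in the results was not tested.

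D-type cyclins bind CDK4 and CDK6 in response to growth signals and begin the phosphorylation of the retinoblastoma protein, which releases E2F transcription factors. E-type cyclins with CDK2 complete that step at the entry into S phase, cyclin A2 acts with CDK2 in S phase and with CDK1 afterwards, and cyclin B1 with CDK1 drives mitosis. The genes CCNE1, CCNE2, CCNA2, CDK2 and CDK1 are textbook E2F targets, and CCNA2, CCNB1 and CDK1 reach their peak later in the cycle under MYBL2 and FOXM1. In a bulk library a lower share of cells in a phase and less RNA per cell in that phase cannot be told apart.

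The members together took 0.137% and 0.138% of all counts in the PRMT9 shRNA libraries, against 0.182% and 0.187% in the control shRNA libraries. Falls were called for 9 members at an adjusted p below 0.05 (edgeR quasi-likelihood test over all genes). The share of tested genes called in that direction was 34.5%, the share called in the other direction, which no member had, was 33.4%, and calls in either direction came to 67.9%. Of the 10 members 3 were called and fell by 1 or more on the log2 scale, as did 3.77% of tested genes. Both PRMT9 shRNA libraries lay apart from both control shRNA libraries in CPM for 9 members, and for 83.3% of tested genes, so separation of the groups by itself says little about these genes. The median log2 fold change was -0.60 over the members and 0.0008 over all genes tested.

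**Figure D1:**
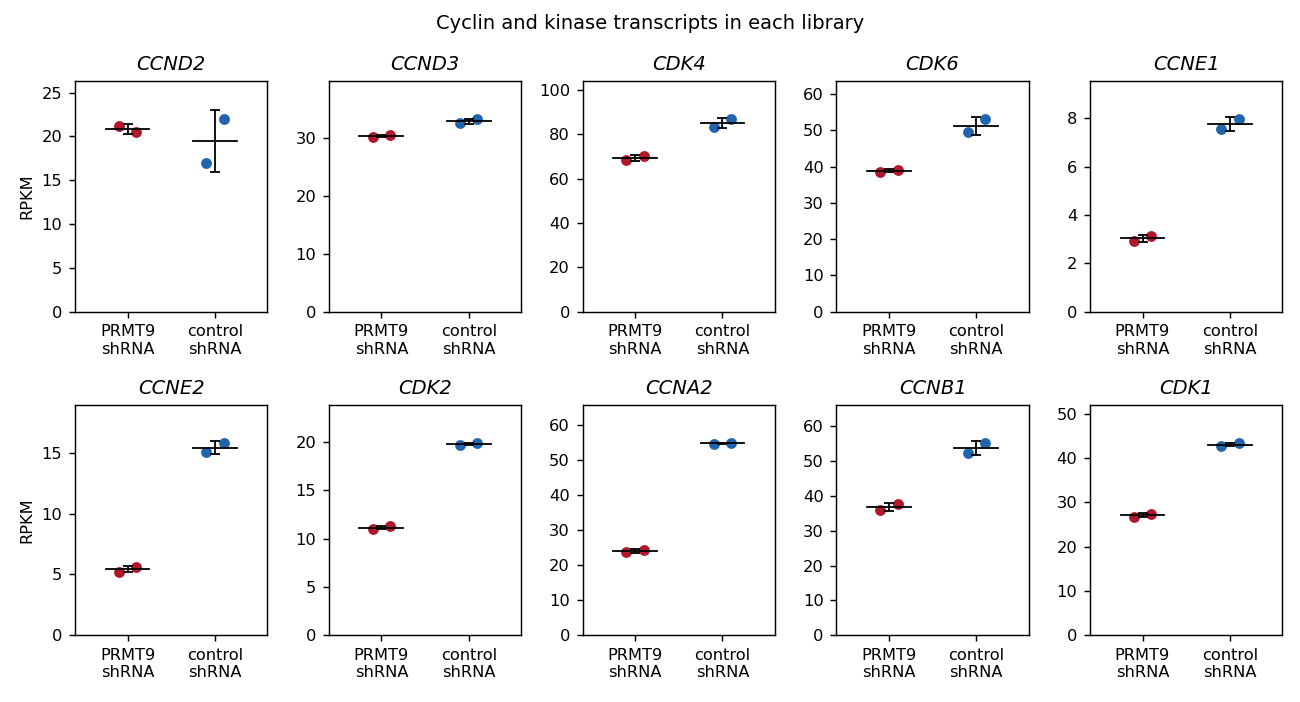
Level of each cyclin and kinase transcript in RPKM (vertical axis, from 0) in the 2 PRMT9 shRNA libraries (red) and the 2 control shRNA libraries (blue). Points are libraries, horizontal bars are means and whiskers are SDs. The PRMT9 shRNA points lie below the control shRNA points for every gene but CCND2, whose control values of 16.9 and 21.9 RPKM lie on either side of the PRMT9 shRNA values.

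Of the D-type cyclin genes in the set, CCND3 changed little and CCND2 could not be placed. CCND2 (ENSG00000118971, chromosome 12, 4273772 to 4305350, plus strand of GRCh38), the D-type cyclin gene that haematopoietic cells commonly express with CCND3, had 152.5 and 146.7 CPM in the PRMT9 shRNA libraries, against 122.8 and 155.1 CPM in the control shRNA libraries. Control library 1 was low and control library 2 was above both PRMT9 shRNA libraries, so the groups overlapped. The means were 149.6 ± 4.1 CPM in PRMT9 shRNA libraries and 139 ± 22.9 CPM in control shRNA libraries (SD, n = 2 each). The log2 fold change was 0.11 with a 95% interval of -0.54 to 0.75 (edgeR adjusted p = 0.62). Without control library 1 the change was -0.06 (adjusted p = 0.0968), and without control library 2 it was 0.30 (adjusted p = 1.21e-16), so the sign for CCND2 rested on which control library was used. With 1 control library left, the spread in these fits came from the PRMT9 shRNA libraries and left out that between the control libraries, so these p-values say little about CCND2.

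The spread of CCND2 between the control libraries was large for its level. The control libraries differed by 0.34 on the log2 scale of CPM, and of 2019 genes with a mean of 100 CPM or more 0.149% differed by more between them. Over those 2019 genes the median gap within a group was 0.02 for the PRMT9 shRNA libraries and 0.03 for the control shRNA libraries. Between the PRMT9 shRNA libraries CCND2 differed by 0.06. In GENCODE release 29, 13.8% of the exon bases of CCND2 also belong to AC008012.1, a gene on the same strand. AC008012.1 is not among the genes of the count table. CCND2-AS1, which had 1 to 6 counts in a library, shares 1.8% of the exon bases. The part of these overlaps in the spread was not tested.

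CCND3 (ENSG00000112576, chromosome 6, 41934933 to 42050357, minus strand), the other D-type cyclin gene of the set, had 176.2 and 177.6 CPM in the PRMT9 shRNA libraries, against 191.7 and 190.6 CPM in the control shRNA libraries. The libraries of a group differed by less than the groups did, and the groups did not overlap. CCND3 fell by 0.11 on the log2 scale (SE 0.024, adjusted p = 0.000451), a difference of 1.08-fold. With upper-quartile scaling the change was -0.02 and was not called (adjusted p = 0.399).

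The kinases of the D-type cyclins fell by a modest amount. CDK4 (ENSG00000135446, chromosome 12, 57747727 to 57756013, minus strand) had 217.1 and 222.5 CPM in the PRMT9 shRNA libraries, against 267.9 and 271.5 CPM in the control shRNA libraries. CDK6 (ENSG00000105810, chromosome 7, 92604921 to 92836594, minus strand), the relative of CDK4 that KMT2A-rearranged leukaemias are known to depend on, had 474.6 and 480.3 CPM in the PRMT9 shRNA libraries, against 614 and 641.3 CPM in the control shRNA libraries. Every PRMT9 shRNA library was below every control shRNA library for both kinases. The log2 fold change was -0.29 for CDK4 (95% interval -0.34 to -0.25, adjusted p = 1.29e-09) and -0.39 for CDK6 (95% interval -0.44 to -0.35, adjusted p = 8.29e-12). Neither passed a test against a fold of 1.5.

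Exons of CDK4 overlap those of a neighbour on the other strand. In GENCODE release 29, 43.2% of the exon bases of CDK4 also lie in exons of TSPAN31, a tetraspanin gene. TSPAN31 had 1651 and 1759 counts in the PRMT9 shRNA libraries, against 865 and 833 in the control shRNA libraries, and rose by 0.86 on the log2 scale (adjusted p = 4.96e-12). Whether the counting used strand is not given in the sources used here, so reads in the shared bases cannot be assigned, and their part in the CDK4 value was not tested.

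The E-type cyclins had the steepest falls of the set. CCNE1 (ENSG00000105173, chromosome 19, 29811898 to 29824308, plus strand) had 232 and 271 counts, or 7.502 and 7.983 CPM, in the PRMT9 shRNA libraries, against 590 and 568 counts, or 19.51 and 20.04 CPM, in the control shRNA libraries. The groups stood far apart relative to the differences within them. CCNE1 fell by 1.35 on the log2 scale (SE 0.083, 95% interval -1.53 to -1.18, adjusted p = 2.77e-11), a 2.55-fold lower level. CCNE1 shares no exon base with another GENCODE gene.

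CCNE2 (ENSG00000175305, chromosome 8, 94879770 to 94896678, minus strand), the second E-type cyclin gene, had 23.1 and 24.8 CPM in the PRMT9 shRNA libraries, against 67.0 and 68.5 CPM in the control shRNA libraries. The level in either PRMT9 shRNA library was below that in either control shRNA library by a wide margin. CCNE2 fell by 1.498 on the log2 scale (SE 0.048, 95% interval -1.60 to -1.40, adjusted p = 1.69e-15), and only 0.9% of tested genes had a change that low or lower. Of its exon bases 37.1% lie in exons of other genes, nearly all in INTS8, a subunit gene of the Integrator complex on the opposite strand. INTS8 itself fell by 0.20 on the log2 scale, with 3317 and 3795 counts in the PRMT9 shRNA libraries against 3744 and 3635 in the control shRNA libraries. As for CDK4, reads in the shared bases cannot be assigned, because the use of strand in the counting is not given. Their part in the CCNE2 value was not tested.

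CDK2 and cyclin A2, the pair of S phase, fell together but not by the same amount. CDK2 (ENSG00000123374, chromosome 12, 55966769 to 55972784, plus strand), the kinase of E-type cyclins and cyclin A2, had 43.0 and 43.9 CPM in the PRMT9 shRNA libraries, against 77.6 and 76.3 CPM in the control shRNA libraries. CCNA2 (ENSG00000145386, chromosome 4, 121816444 to 121823933, minus strand) had 66.5 and 68.3 CPM in the PRMT9 shRNA libraries, against 155.2 and 151.7 CPM in the control shRNA libraries. For both genes the libraries within a group nearly coincided and the groups did not overlap. CDK2 fell by 0.82 on the log2 scale (95% interval -0.91 to -0.74, adjusted p = 6.23e-13). CCNA2 fell by 1.19 (95% interval -1.25 to -1.12, adjusted p = 6.54e-17), so the 2 intervals lie apart. Exons of other genes cover 16.8% of the exon bases of CDK2 and 9.1% of those of CCNA2. The partner of CCNA2 there is the RNA exosome gene EXOSC9, which fell by 0.69. Of the partners of CDK2 the larger, the antisense gene AC025162.1, had 0 to 2 counts in a library. The part of the shared bases in the values of CDK2 and CCNA2 was not tested.

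The mitotic pair fell by less than cyclin A2. CDK1 (ENSG00000170312, chromosome 10, 60778331 to 60794852, plus strand), the kinase that drives mitosis, had 105.5 and 108.1 CPM in the PRMT9 shRNA libraries, against 170.0 and 168.3 CPM in the control shRNA libraries. CCNB1 (ENSG00000134057, chromosome 5, 69167010 to 69178245, plus strand), its mitotic cyclin, had 92.3 and 96.4 CPM in the PRMT9 shRNA libraries, against 135.3 and 139.0 CPM in the control shRNA libraries. Each gene was lower in both PRMT9 shRNA libraries than in either control shRNA library. CDK1 fell by 0.66 on the log2 scale (95% interval -0.72 to -0.61, adjusted p = 6.06e-14) and CCNB1 by 0.54 (95% interval -0.60 to -0.47, adjusted p = 8.02e-12). The intervals of CCNE1, CCNE2 and CCNA2 all lie below those of CDK1 and CCNB1, and these lie below those of CDK6, CDK4 and CCND3, although differences between genes were not tested. CCNB1 and CDK1 share no exon base with another GENCODE gene.

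**Figure D2:**
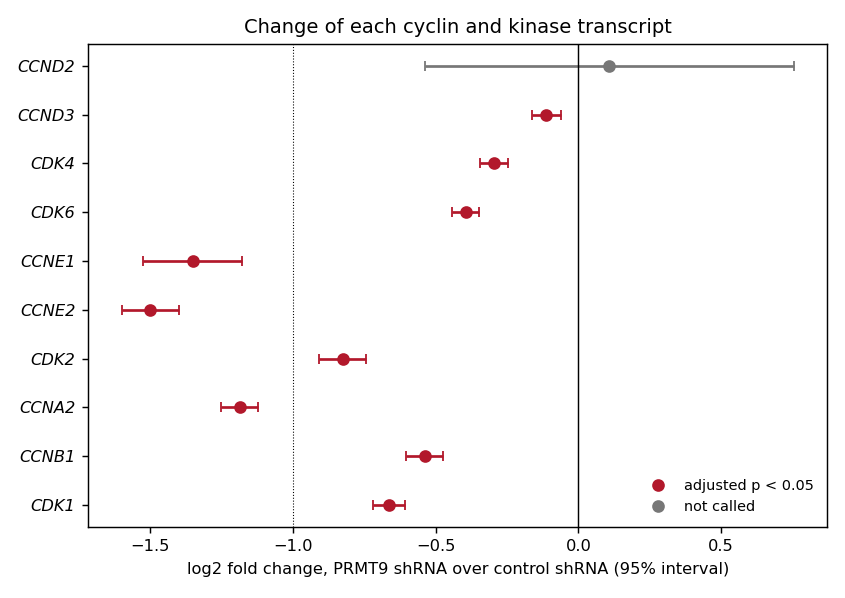
Log2 fold change of each transcript, PRMT9 shRNA over control shRNA (horizontal axis), with its 95% interval from edgeR (2 libraries per group). Red points passed an adjusted p below 0.05, the grey point did not, and the dotted line marks -1. CCNE2 at -1.498, CCNE1 at -1.35 and CCNA2 at -1.19 lie left of the dotted line, and the wide interval is that of CCND2.

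Sequence just upstream of the start site is shown for the late cell cycle genes that fell together and for CCND3, which changed least among the called members. RefSeq promoters of 250 bases before the start (GRCh38.p14) were found for 7 of the 10 members, all but CCND2, CCNE2 and CDK2. The windows printed are the last 130 bases before the RefSeq start, 5′ to 3′ on the gene's strand, at chr4:121823884-121824013 (minus strand) for CCNA2, chr5:69167020-69167149 (plus strand) for CCNB1, chr10:60778348-60778477 (plus strand) for CDK1 and chr6:41939206-41939335 (minus strand) for CCND3. Capitals mark 3 motifs, searched on both strands: the CCAAT box (CCAAT), bound by NF-Y, the cell cycle homology region (TTTGAA or TTCGAA), bound by the LIN54 subunit of the MuvB complex, and 4 forms of an E2F site (TTTCCCGC, TTTGGCGC, TTTCGCGC and TTTGCCGC).
CCNA2: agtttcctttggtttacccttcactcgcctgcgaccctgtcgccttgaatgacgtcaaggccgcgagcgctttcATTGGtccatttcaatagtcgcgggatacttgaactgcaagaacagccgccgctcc
CCNB1: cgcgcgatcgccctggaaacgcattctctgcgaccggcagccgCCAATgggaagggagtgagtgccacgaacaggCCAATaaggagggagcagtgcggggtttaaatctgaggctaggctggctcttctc
CDK1: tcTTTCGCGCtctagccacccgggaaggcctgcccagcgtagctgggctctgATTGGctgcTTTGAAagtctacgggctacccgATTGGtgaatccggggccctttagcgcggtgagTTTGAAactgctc
CCND3: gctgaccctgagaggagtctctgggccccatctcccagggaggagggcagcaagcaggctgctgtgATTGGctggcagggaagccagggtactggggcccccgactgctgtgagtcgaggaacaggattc

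A CCAAT box lay in the 250 bases of 4 of the 7 members, CCNA2, CCNB1, CDK1 and CCND3, and in 32.0% of 35116 RefSeq promoters of that length. CCNB1 and CDK1 held 2 each, at -87 and -55 in CCNB1 and at -78 and -46 in CDK1, counted to the base of the box farthest from the start. CDK1 was the member with a cell cycle homology letter match, at -69 and at -13, which 14.3% of promoters held. It was also the member with one of the E2F forms, at -128, which 2.79% of promoters held. None of the motifs was in the windows of CDK4, CDK6 and CCNE1. Only the exact letters given were searched, so a gene without a match may hold another form of the element. CCND3 held 1 CCAAT box, on the reverse strand as in CCNA2 and CDK1. The RefSeq start of CCND3 lies 111152 bases from the outermost start in the count table. That distance is 3703 bases for CDK4 and 2635 for CDK6, and from 50 (CCNA2) to 147 (CDK1) for the other members searched. Whether these cells use the RefSeq starts was not tested.

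Levels per exon length put CDK4 at the top and CCNE1 at the bottom in both groups. CDK4 averaged 69.3 ± 1.32 RPKM in PRMT9 shRNA libraries and 85.1 ± 2.27 RPKM in control shRNA libraries, and CCNE1 averaged 3.03 ± 0.138 RPKM in PRMT9 shRNA libraries and 7.76 ± 0.281 RPKM in control shRNA libraries (SD, n = 2 each). In the PRMT9 shRNA libraries the order from the top was CDK4, CDK6, CCNB1, CCND3, CDK1, CCNA2, CCND2, CDK2, CCNE2 and CCNE1, and no pair of neighbours overlapped between libraries. In the control shRNA libraries the order was CDK4, CCNA2, CCNB1, CDK6, CDK1, CCND3, CDK2, CCND2, CCNE2 and CCNE1. There the ranges of CCNA2 and CCNB1, of CCNB1 and CDK6, and of CDK2 and CCND2 overlapped. CCNA2 thus ranked sixth at 24.1 RPKM in PRMT9 shRNA libraries and second at 54.8 RPKM in control shRNA libraries, although its range there overlapped that of CCNB1 at the next rank. How reads in exon bases shared with other genes were counted is not given. Such bases make up 43.2% of CDK4 and 37.1% of CCNE2, and their part in these levels and ranks was not tested.

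Ratios between paralogs, which do closely related work, differed by 0.23 or less on the log2 scale. The RPKM ratio of CCNE1 to CCNE2 was 0.560 and 0.556 in the PRMT9 shRNA libraries, against 0.502 and 0.505 in the control shRNA libraries. The ratio of CDK6 to CDK4 was 0.565 and 0.558 in the PRMT9 shRNA libraries, against 0.592 and 0.611 in the control shRNA libraries. That of CCND2 to CCND3 was 0.702 and 0.670 in the PRMT9 shRNA libraries, against 0.519 and 0.660 in the control shRNA libraries. For CDK1 to CDK2 it was 2.43 and 2.44 in the PRMT9 shRNA libraries, against 2.17 and 2.19 in the control shRNA libraries. The groups did not overlap in any of these 4 ratios, nor did they in CPM for 83.3% of tested genes. The latter share is over single genes, and none was computed over ratios. The mean log2 ratio, PRMT9 shRNA minus control shRNA, differed by 0.15 for CCNE1 to CCNE2, -0.10 for CDK6 to CDK4, 0.23 for CCND2 to CCND3 and 0.16 for CDK1 to CDK2. The difference for CCND2 to CCND3 was 0.055 without control library 1 and 0.40 without control library 2. CDK4 and CCNE2 share exon bases with TSPAN31 and INTS8, and the part of those bases in the ratios was not tested. A two-sided exact permutation test gave p = 0.333 for each pair (adjusted over the 4 pairs, 0.333), which is the smallest p that 2 libraries against 2 allow.

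The ratio of a cyclin to its kinase was lower after knockdown for some pairs and higher for others. The choice of these ratios was made after the levels were seen, and they are given as a description. The summed RPKM of CCND2 and CCND3 over that of CDK4 and CDK6 was 0.482 and 0.467 in the PRMT9 shRNA libraries, against 0.373 and 0.395 in the control shRNA libraries. The summed E-type cyclins over CDK2 gave 0.743 and 0.778 in the PRMT9 shRNA libraries, against 1.149 and 1.196 in the control shRNA libraries. For CCNA2 over CDK2 the ratio was 2.15 and 2.17 in the PRMT9 shRNA libraries, against 2.78 and 2.77 in the control shRNA libraries. CCNB1 over CDK1 gave 1.35 and 1.37 in the PRMT9 shRNA libraries, against 1.22 and 1.27 in the control shRNA libraries. Cyclin RNA was thus lower relative to CDK2 for the E-type cyclins and cyclin A2. It was higher relative to the kinase for CCND2 with CCND3 and for cyclin B1. The groups did not overlap in these ratios, but 83.3% of tested genes also lay apart in CPM. That share is over single genes, and a share over ratios was not computed. The D-type ratio holds CCND2, which could not be placed, and CDK4, which shares exon bases with TSPAN31, and it leaves out CCND1. The E-type ratio holds CCNE2, which shares exon bases with INTS8.

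**Figure D3:**
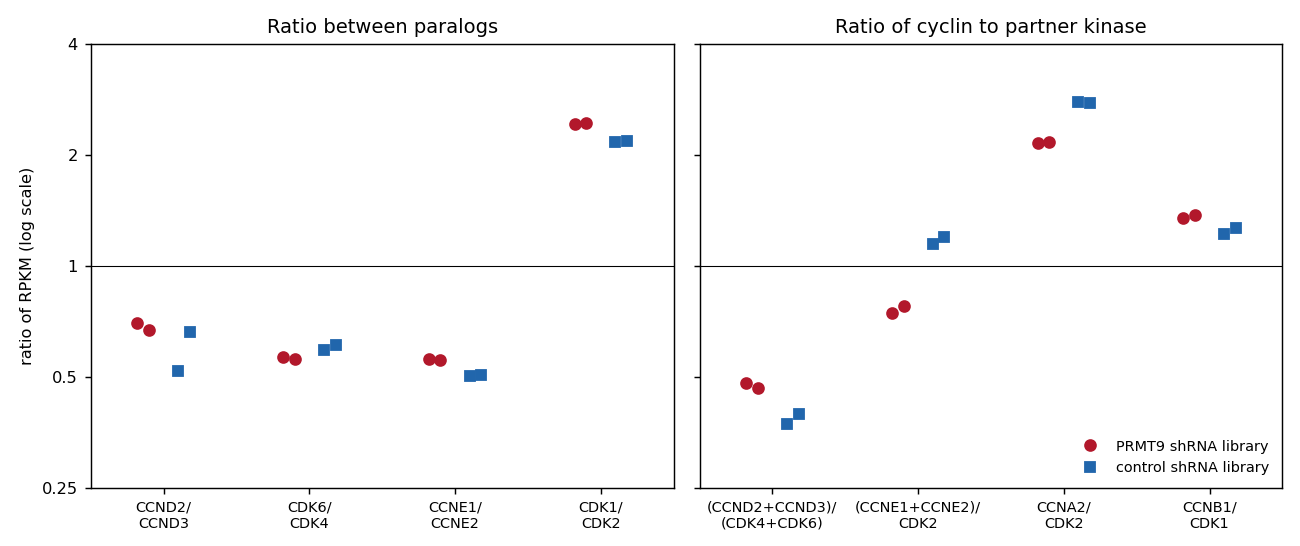
Ratios of RPKM (vertical axis, log scale) between paralogs (left) and of cyclins to their partner kinases (right), with 1 point per library. PRMT9 shRNA libraries are red circles and control shRNA libraries blue squares. The E-type cyclins over CDK2 lie below 1 in the PRMT9 shRNA libraries, at 0.743 and 0.778, and above 1 in the control shRNA libraries.

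Relatives of the members did not share a direction. Of 16 tested genes on a list of other cyclins and kinases 7 rose and 6 fell (median 0.00 on the log2 scale). Among all tested genes 33.4% rose and 34.5% fell. CCND1, the D-type cyclin gene that was scarce here, had 358 and 449 counts in the PRMT9 shRNA libraries, against 185 and 159 in the control shRNA libraries. It rose by 1.08 (adjusted p = 2.05e-08). Per length it stood at 2.39 and 2.74 RPKM in the PRMT9 shRNA libraries, against 1.251 and 1.176 RPKM in the control shRNA libraries, below CCND2 and CCND3 in every library. CCNB2, the second mitotic B-type cyclin gene, fell by 0.56 (adjusted p = 1.3e-10), close to CCNB1. CCNF, which encodes a ubiquitin ligase subunit with a cyclin fold, fell by 0.62 (adjusted p = 5.5e-10). The value for CCNA1, the A-type cyclin gene of the germ line and of myeloid leukaemias, was -0.11 and was not called (adjusted p = 0.422).

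The CDK-activating kinase, which phosphorylates the activation loop of the cell cycle kinases, showed small values of mixed sign. CDK7, its catalytic subunit gene, had 30.8 and 29.3 CPM in the PRMT9 shRNA libraries, against 28.5 and 30.5 CPM in the control shRNA libraries, so the groups overlapped. Its log2 fold change of 0.03 was not called (adjusted p = 0.672). CCNH, its cyclin gene, fell by 0.20 (adjusted p = 0.00273), and MNAT1, its assembly factor gene, rose by 0.28 (adjusted p = 0.00244). The call on CCNH was lost with upper-quartile scaling (-0.11, adjusted p = 0.07), with DESeq2 (-0.20, adjusted p = 0.0533), with log2(RPKM + 1) and no filter (-0.18, adjusted p = 0.127), against a fold of 1.5 and without control library 2 (-0.12, adjusted p = 0.1).

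Genes that switch CDK1 and CDK2 on or off by phosphorylation were mostly lower. PKMYT1 and WEE1, the kinases that inhibit CDK1, fell by 1.73 (adjusted p = 1.41e-13) and 0.72 (adjusted p = 1.56e-11). Of 7 cofactors and phosphatases 5 fell and 1 rose, with a median of -0.54, where 34.5% of all tested genes fell and 33.4% rose. CDC25A, the phosphatase gene that activates CDK2 at the entry into S phase, had 19.2 and 19.1 CPM in the PRMT9 shRNA libraries, against 55.2 and 54.2 CPM in the control shRNA libraries, a fall of 1.52 (adjusted p = 2.3e-15). CDC25B fell by 0.55, whereas CDC25C, another phosphatase gene of mitotic entry, had a value of 0.19 that was not called (adjusted p = 0.0585). In edgeR, CDC25C was called with upper-quartile scaling (0.28, adjusted p = 0.00781), library totals only (0.20, adjusted p = 0.0421) and a filter at 1 CPM (0.22, adjusted p = 0.0252). Without control library 2 its value was 0.28. The CDK-binding adaptor genes CKS1B and CKS2 fell by 0.48 and 0.54, and CDKN3, which encodes a phosphatase of the CDK activation loop, fell by 1.00. CDC37, the HSP90 cochaperone that loads CDK4 and other kinases, rose by 0.29 (adjusted p = 3.74e-09).

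Inhibitors of the kinases did not move one way. Of 8 tested inhibitors and pocket proteins 4 rose and 2 fell (median 0.06), where 33.4% of all tested genes rose and 34.5% fell. CDKN2A and CDKN2B had no count in any library. CDKN1A (p21), which inhibits CDK2, rose by 0.60 (adjusted p = 7.91e-15), with 400.4 and 405.8 CPM in the PRMT9 shRNA libraries, against 266.9 and 263.3 CPM in the control shRNA libraries, and CDKN1B (p27) rose by 0.30. CDKN2C (p18), an inhibitor of CDK4 and CDK6, fell by 0.61 (adjusted p = 3.96e-12). RB1, which encodes the retinoblastoma protein, had a value of -0.04 that was not called (adjusted p = 0.138), and 0.05 with upper-quartile scaling.

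Genes that set how long cyclin proteins last were lower on balance. Of 21 tested ubiquitin ligase genes and inhibitors 14 fell and 2 rose (median -0.29), where 34.5% of all tested genes fell and 33.4% rose. CDC20, the mitotic activator of the anaphase-promoting complex that destroys cyclin B1, fell by 1.37 (adjusted p = 7.8e-17). FBXO5, an inhibitor of that complex, fell by 1.01, and UBE2C, its ubiquitin-conjugating enzyme, by 0.49. FZR1, its activator outside mitosis, rose by 0.15 (adjusted p = 0.00598), a call lost with DESeq2 (0.16, adjusted p = 0.0755). SKP2, which targets p27, fell by 0.81 (adjusted p = 1.58e-13) and FBXW7, which targets cyclin E, by 0.31 (adjusted p = 1.8e-05). AMBRA1, the receptor subunit that targets D-type cyclins, had a value of -0.03 that was not called (adjusted p = 0.595), and 0.05 with upper-quartile scaling. The files measure RNA, so cyclin protein levels were not observed.

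Of 20 transcription factors of cell cycle genes 17 fell and 3 rose (median -0.83), where 34.5% of all tested genes fell and 33.4% rose. E2F1 fell by 1.39 (adjusted p = 5.82e-13), MYBL2 by 1.37 (adjusted p = 1.99e-18) and FOXM1 by 1.14 (adjusted p = 5.37e-15). LIN54, the DNA-binding subunit of the MuvB complex, fell by 0.74 (adjusted p = 1.84e-09). The 3 that rose were TFDP2, LIN37 and NFYC, named after their values were seen. LIN37 rested on 88 and 83 counts in the PRMT9 shRNA libraries, against 48 and 57 in the control shRNA libraries, and had an adjusted p of 0.0275. With DESeq2, with the RPKM fits and at an adjusted p below 0.01, 2 genes of the list rose, and against a fold of 1.5 none did.

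**Figure D4:**
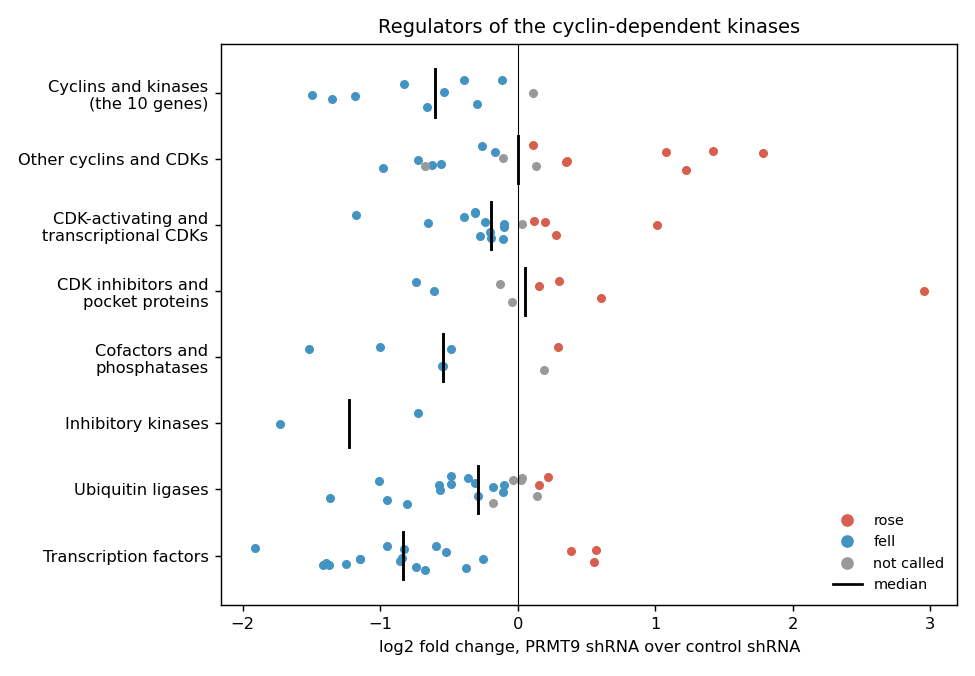
Log2 fold change, PRMT9 shRNA over control shRNA (horizontal axis), of every tested gene in the set of 10 cyclins and kinases (top row) and in 7 lists of related genes. Each point is a gene, red where it rose, blue where it fell and grey where it was not called, and the black bars are medians. The medians run from -1.22 for the 2 inhibitory kinases to 0.06 for the inhibitors and pocket proteins, and that of the 10 genes is -0.60.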

How the data were processed

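The authors deposited raw read counts per gene and RPKM values of the same genes for the 4 libraries. Per the submitters' processing notes, Trimmomatic 0.39, STAR 2.7.2a and SAMtools 1.10 were used, with GRCh38. For the counting program and its use of strand, nothing is given in the sources used here. The deposited RPKM equalled the count per exon length and library total divided by 1 factor per library (0.979 to 1.01). Counts were filtered with filterByExpr (minimum count 10), scaled by TMM and tested with the quasi-likelihood test of edgeR 4.0.16 (robust, group term only) in R 4.3.3, with Benjamini-Hochberg adjustment over 15193 genes and calls below 0.05. The SE is the size of the log2 fold change over the root of the F statistic. The script was tested on simulated data. Alternatives used limma 3.58.1 (voom, and log2(RPKM + 1) or log2(RPKM + 0.1) above 0.5 RPKM) and DESeq2 1.42.0. Libraries of a group differed beyond counting noise (chi-square per degree of freedom 1.60 for PRMT9 shRNA and 3.00 for control shRNA libraries), so none was treated as a repeat deposit of another. That does not show that they came from separate cultures. Exon overlap was read from GENCODE release 29, where all 10 members have the coordinates of the count table. Members, lists and the genes picked by role to be named were chosen with earlier results of these data known. Other tested genes of the lists were named after their values were seen.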

Additional observations from a re-analysis of the deposited data

How the results depend on the processing

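Each member and PRMT9 was recomputed under 18 alternatives. For PRMT9, CCNE1, CCNE2, CDK2, CCNA2 and CDK1 the call and direction held in all 18. Against a fold of 1.5, 5 members fell and 0 rose, and CCND3 (-0.11), CDK4 (-0.29), CDK6 (-0.39) and CCNB1 (-0.54) were not called (adjusted p = 1 for each). Under that test 1689 of all genes rose and 1212 fell, against 5067 and 5246 in the test without a fold, and 5 genes of the 7 related lists rose and 22 fell, against 21 and 58. CCND3 was not called with upper-quartile scaling (-0.023), which shifted the median of all genes by 0.09. Leaving out 1 library gave -0.061 to 0.30 for CCND2, reversed without control library 1 (-0.061), and 0 to 1 rising members, with the call made on CCND2 without control library 2. CCND2 was not called under any other alternative. Of genes named outside the set, the log2 fold change of CDK7 was reversed without PRMT9 shRNA library 1 (-0.0098) and without control library 1 (-0.029), with a range of -0.029 to 0.091 over the fits that leave out 1 library, and RB1 (0.047) and AMBRA1 (0.055) were with upper-quartile scaling. Genes called rising among the ubiquitin ligases were 4 with upper-quartile scaling and 1 with DESeq2, against 2. Genes called rising among the cofactors were 2 with upper-quartile scaling, library totals, a filter at 1 CPM or without control library 2, against 1. The replicate number as a block left 9 members falling and 0 rising, with 5014 of all genes rising and 5229 falling. Same-numbered libraries did not deviate together (correlation across genes -0.03), so the numbers were not taken to pair them. CCNE1 rests on the fewest reads, 232 to 590 a library.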

Other observations

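A list of 17 tested genes held the CDK-activating kinase and the cyclins and kinases that act mainly in transcription and RNA processing. Of these 12 fell and 4 rose (median -0.20 on the log2 scale), where 34.5% of all tested genes fell and 33.4% rose. The number falling was 8 with upper-quartile scaling and with DESeq2 and 7 with log2(RPKM + 1) and no filter, and against a fold of 1.5 none fell and 1 rose. Genes named here beyond the CDK-activating kinase were chosen after their values were seen. CDK19, a kinase of the Mediator complex, rose by 1.01 (SE 0.034, edgeR adjusted p = 3.92e-15), with 111.5 and 108.8 CPM in the PRMT9 shRNA libraries, against 53.6 and 55.6 CPM in the control shRNA libraries. Its paralog CDK8 fell by 0.31 (adjusted p = 3.63e-06), as did their cyclin gene CCNC by 0.27 (adjusted p = 1.55e-07). CDK9, the kinase of the elongation factor P-TEFb, rose by 0.20 (adjusted p = 0.00165), while its cyclin genes CCNT1 and CCNT2 fell by 0.39 and 0.24.

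The tested genes that follow were likewise named after their values were seen. Among the other cyclins, CCNG2, which is linked to cell cycle arrest, rose by 1.22 (adjusted p = 2.85e-14), to 56.8 ± 0.54 CPM in PRMT9 shRNA libraries, against a mean of 24.3 CPM in control shRNA libraries. CCNJ fell by 0.98 (adjusted p = 1.5e-09). CDK18 rose by 1.79 (adjusted p = 2.79e-09), with 213 and 243 counts in the PRMT9 shRNA libraries, against 56 and 63 in the control shRNA libraries. CDKN1C (p57) rose by 2.95 (adjusted p = 2.47e-06) on 51 and 45 counts in the PRMT9 shRNA libraries, against 4 and 7 in the control shRNA libraries. CDK3 had 2 to 6 counts in a library and was not tested.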
